A study of Homo sapiens with 12 samples.

Results

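The genes described here encode 10 regulators of iron handling and of ferroptosis. They are SLC7A11, GPX4, AIFM2, ACSL4, SAT1, TFRC, SLC40A1, FTH1, FTL and NCOA4, a set of named genes taken by symbol from the 60660 gene identifiers of the count table. All 10 were among the 21803 genes that passed the filter on low counts, and their counts ran from 38 to 266590 per library. The 12 RNA-seq libraries, 4 groups of 3, carry the label HS578T, a cell line of triple-negative breast cancer. The sample titles name the cells cas9 or CAS9 (genotype label WT), called intact here, or 17PKO, called deleted, which the series describes as carrying a heterozygous deletion of the short arm of chromosome 17 (17p). Both were given DMSO, the vehicle, or doxorubicin, a topoisomerase-poisoning anthracycline, for 48 h, at 170 nM in the intact and 1 µM in the deleted cells. Genotype and dose therefore cannot be told apart between treated libraries. Whether the deleted cells are 1 clone or a pool was not stated.

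Ferroptosis is a form of cell death in which iron-driven peroxidation of membrane phospholipids outruns the enzymes that repair it. SLC7A11 brings in cystine for glutathione, GPX4 uses glutathione to reduce lipid peroxides, and AIFM2 (also called FSP1) regenerates radical-trapping ubiquinol on a parallel route. ACSL4 loads polyunsaturated fatty acids into the phospholipids that peroxidise. Iron enters through the transferrin receptor TFRC, is stored in shells of the ferritin heavy (FTH1) and light (FTL) chains, is released from them by NCOA4-directed autophagy and leaves the cell through ferroportin, SLC40A1. SAT1 acetylates spermidine and spermine, and its induction is known to sensitise cells to ferroptosis. Iron regulatory proteins bind a stem-loop, the iron-responsive element, and thereby block translation of ferritin and ferroportin mRNA and protect TFRC mRNA from decay when iron is scarce.

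Because of its part in the control of ferritin, ferroportin and TFRC mRNA, that element was searched for in 1 GENCODE 29 transcript per gene. The search asked for an unpaired C, 5 bases, the loop CAGNGN and 5 bases that pair with the first 5, G-T pairs allowed, where the N are T or A and then A, C or T. Of the 10 genes 4 held a match. It lay in the 5′ UTR of FTH1, FTL and SLC40A1, which 28 of 18449 genes shared (0.152%), and in the 3′ UTR of TFRC, which 139 of 19492 shared (0.713%). TFRC held 5 and was the only gene of those 19492 with as many. NCOA4, also an iron gene, held 0, as did SLC7A11, GPX4, ACSL4, SAT1 and AIFM2. A match is a description of the sequence and not a measured binding site. The matches are shown 5′ to 3′ as DNA (hg38), with the 6-base loop in capitals.
FTH1 (chr11:61967573-61967602, minus strand): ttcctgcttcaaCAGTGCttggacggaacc
FTL (chr19:48965335-48965364, plus strand): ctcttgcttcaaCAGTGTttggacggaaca
SLC40A1 (chr2:189580660-189580689, minus strand): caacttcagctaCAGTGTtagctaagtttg
TFRC element 1 (chr3:196051028-196051057, minus strand): atttatcagtgaCAGAGTtcactataaatg
TFRC element 2 (chr3:196050978-196051007, minus strand): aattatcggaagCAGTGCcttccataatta
TFRC element 3 (chr3:196050574-196050603, minus strand): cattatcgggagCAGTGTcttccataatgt
TFRC element 4 (chr3:196050509-196050538, minus strand): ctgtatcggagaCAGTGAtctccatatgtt
TFRC element 5 (chr3:196050462-196050491, minus strand): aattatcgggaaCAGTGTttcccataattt

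Library totals ran from 66150539 to 99142099 counts, and 3 counts, the limit that a count of 0 allows, stood for 0.0303 to 0.0454 CPM (counts per 1e+06). Both cover counting error only. POLR2A, a 17p gene, was at 439 to 539 CPM in the intact and 500 to 730 CPM in the deleted DMSO libraries, so it was not lower in the libraries labelled as having lost a copy, and genotypes are named by their labels throughout. None of the 10 genes is on chromosome 17. Positions of the genes in the wider lists below were not examined, and some may lie on 17p. A check for mixed-up samples found 12 of 12 libraries that did not match what is recorded for the line. Of 10 mesenchymal markers 8 or 9 reached 5 CPM in each group, and of 9 epithelial and luminal markers 4 did, with a sum of 392 to 665 CPM. These 4 were KRT8 at 292 to 371, KRT18 at 152 to 223, GATA3 at 15.7 to 22.7 and ERBB3 at 5.76 to 10.8 mean CPM over the groups. KRT19 was at 0.465 to 1.81 mean CPM, and EPCAM, CDH1, ESR1 and PGR were below 0.5 CPM in every library. Of the mesenchymal markers COL1A2 stayed below 5 CPM in each group, at 0.164 to 1.63 mean CPM. MMP2 was at 28.6 mean CPM in intact and 3.06 in deleted DMSO libraries, and at 27.6 and 1.88 in doxorubicin. Blood and macrophage markers summed to 0.732 to 1.69 CPM and erythroid markers to 0.183 to 0.951 CPM. Mitochondrial genes took 6.90% of counts in deleted DMSO replicate 2 and 5.54% in intact doxorubicin replicate 1, against 2.61% to 3.57% in the others. Nothing in the labels ties the libraries to separate cultures, and p-values then reflect no more than the spread among samples, possibly a technical one.

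Per kilobase of exon, the ferritin chains were the most abundant of the 10 transcripts in each group and SLC40A1 the least. In intact DMSO libraries FTH1 stood at 1258 ± 70.5 CPM per kb (SD, n = 3) and FTL at 1229 ± 46.8, and their libraries overlapped. NCOA4 followed at 126 ± 3.15, GPX4 at 82.2 ± 5.47, TFRC at 58.1 ± 2.16 and ACSL4 at 32.1 ± 0.481 CPM per kb. SLC7A11 was at 6.74 ± 0.509, SAT1 at 4.67 ± 0.236, AIFM2 at 3.003 ± 0.1503 and SLC40A1 at 0.209 ± 0.0719 CPM per kb, each apart from its neighbours. The order changed at a few places in the other groups. In both deleted groups FTL stood above FTH1 with no overlap, and in deleted doxorubicin libraries SAT1 rose to the fifth place, at 48.8 ± 6.19 CPM per kb, above ACSL4 and TFRC. In intact doxorubicin libraries SLC7A11, SAT1 and AIFM2 overlapped with their neighbours in the order.

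**Figure D1:**
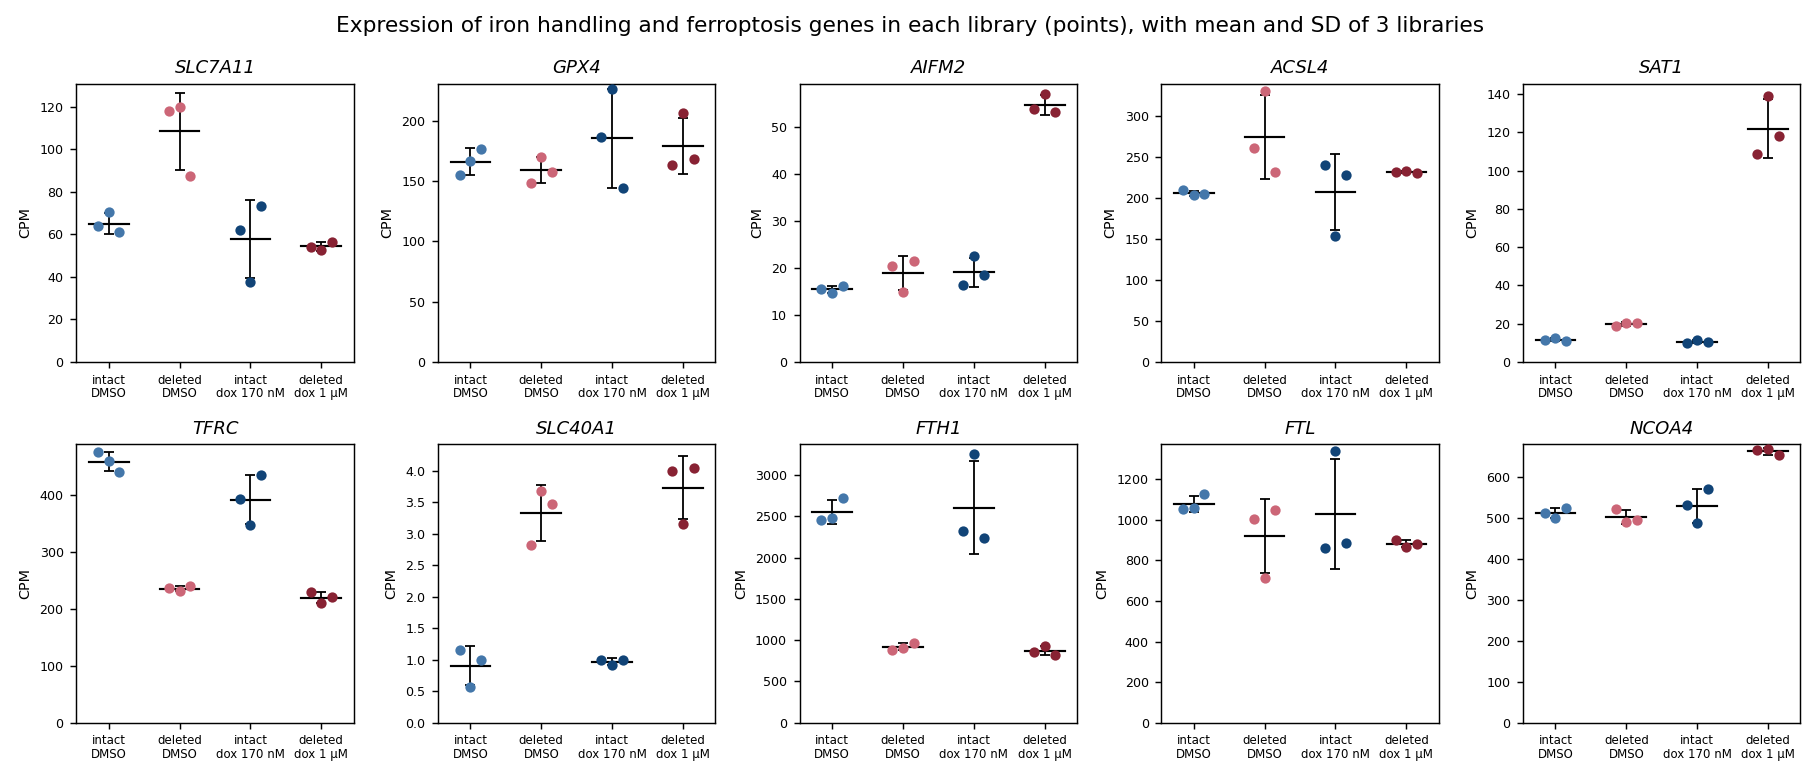
Level of each of the 10 genes in every library, in CPM (y axis, from 0) by group (x axis), with points for the 3 libraries, a horizontal line for their mean and whiskers for 1 SD. FTH1 and TFRC are lower in both deleted groups, and SAT1 and AIFM2 are highest in deleted cells with 1 µM doxorubicin.

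In DMSO, the libraries labelled deleted held less FTH1 and TFRC RNA and more SLC40A1, SAT1 and SLC7A11 RNA than those labelled intact. With 3 higher and 2 lower, 5 of the 10 genes passed the threshold, an adjusted p of 0.05 over all genes tested in 1 edgeR fit. Of all genes tested 34.9% passed in this comparison (18.8% higher and 16.2% lower), so many genes differed with the label. The summed level of the 10 mesenchymal markers was 10010.3 to 10559 CPM in intact and 7342 to 8021 CPM in deleted DMSO libraries, and 8390.5 to 8590.1 and 5559 to 5639 CPM in doxorubicin, with 0 of the markers at 0 counts. AXL and CD44 went against this sum, while the means of the other mesenchymal markers were lower in deleted libraries. From intact to deleted, AXL went from 796 to 951 mean CPM in DMSO and from 653 to 1076 in doxorubicin. CD44 went from 740 to 777 and from 684 to 741. In DMSO the libraries of both overlapped, and so did those of CDH2 and ZEB1, whose means were lower in deleted libraries. The part of these markers in the results was not tested. In bulk RNA, fewer cells of a type and less RNA per cell cannot be told apart.

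Among the iron genes, the ferritin heavy chain gene FTH1 (ENSG00000167996.16, chromosome 11, 61959718 to 61967660, hg38) was at 2459, 2482 and 2718 CPM in intact and 881, 909.7 and 965 CPM in deleted DMSO libraries. Each deleted library lay far below each intact one, with a log2 fold change of -1.44, SE 0.12 (edgeR adjusted p = 1.38e-06), or 0.367 times the intact level. FTH1 shares 1267 of its 2030 exon bases with BEST1 on the other strand, and the strand setting of the counting is not given in the sources used here. BEST1 itself held 128 to 745 counts, and 25 annotated FTH1 pseudogenes together at most 0.868% of the FTH1 count. The light chain gene FTL (ENSG00000087086.15, chromosome 19, 48965301 to 48966878) was at 1052, 1059 and 1126 CPM in intact and 1007, 713 and 1049 CPM in deleted libraries. The FTL groups did not overlap, but replicate 2 of the deleted group stood apart from its partners and the change did not pass, at -0.20, SE 0.15 (edgeR adjusted p = 0.311).

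The transferrin receptor gene TFRC (ENSG00000072274.13, chromosome 3, 196027183 to 196082189) was at 475, 460.0 and 440.5 CPM in intact and 236, 231 and 239.8 CPM in deleted libraries. The groups were far apart and tight, and the change was -0.93, SE 0.093 (edgeR adjusted p = 5.62e-06). The iron exporter gene SLC40A1 (ENSG00000138449.11, chromosome 2, 189560579 to 189583758) was low in all libraries, at 1.16, 0.558 and 1.002 CPM in intact and 2.83, 3.68 and 3.48 CPM in deleted libraries. Each deleted library was above each intact one, by 1.904, SE 0.24 (edgeR adjusted p = 4.45e-05), a 3.74-fold higher level. NCOA4 (ENSG00000266412.5, chromosome 10, 46005088 to 46030714), the ferritin receptor of autophagy, was at 512, 499.9 and 526 CPM in intact and 522, 489.8 and 496 CPM in deleted libraries, with a 95% interval of -0.17 to 0.18 for its log2 fold change.

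Of the lipid peroxide defences, the cystine carrier gene SLC7A11 (ENSG00000151012.13, chromosome 4, 138164097 to 138242349) was at 63.8, 70.4 and 60.9 CPM in intact and 118, 119.7 and 87.6 CPM in deleted libraries. The groups did not overlap and the change was 0.77, SE 0.20 (edgeR adjusted p = 0.00895). SLC7A11 shares 865 of 9645 exon bases with its antisense gene SLC7A11-AS1, which held 4 to 51 counts. GPX4 (ENSG00000167468.18, chromosome 19, 1103926 to 1106791) was at 155, 166 and 177 CPM in intact and 149, 170.3 and 157 CPM in deleted libraries, which overlapped, with a 95% interval of -0.35 to 0.29. AIFM2 (ENSG00000042286.15, chromosome 10, 70098223 to 70132934) was at 15.5, 14.6 and 16.1 CPM in intact and 20.4, 14.9 and 21.5 CPM in deleted libraries and did not pass, at 0.32, SE 0.12 (edgeR adjusted p = 0.0643). Its low deleted value was that of replicate 2, the library with 6.90% mitochondrial counts. Without that library the AIFM2 difference was 0.40 (adjusted p = 0.0149) and past the threshold. By edgeR it also passed without the 2 libraries of highest mitochondrial share, at 0.39 (adjusted p = 0.0052). With each library's dependence on transcript GC content removed it passed at 0.38 (adjusted p = 0.00231). Over the fits without 1 library it ran from 0.23 to 0.40.

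ACSL4 (ENSG00000068366.20, chromosome X, 109624244 to 109733403), the fatty acid ligase, was at 209, 204 and 205 CPM in intact and 261, 331 and 231 CPM in deleted libraries. The groups did not overlap, and the change of 0.45, SE 0.17 (edgeR adjusted p = 0.0566) did not pass. It passed without replicate 3 of the deleted DMSO group, at 0.59 (adjusted p = 0.0214), and without replicate 2 of the intact doxorubicin group, at 0.41 (adjusted p = 0.0171). By edgeR it also passed with no filter on low counts, at 0.40 (adjusted p = 0.00622). With each library's dependence on transcript GC content removed it passed at 0.34 (adjusted p = 0.00718). It was smaller without replicate 2 of the deleted DMSO group, at 0.22 (adjusted p = 0.283), and without the 2 libraries of highest mitochondrial share, at 0.21 (adjusted p = 0.23004) by edgeR. The polyamine acetyltransferase gene SAT1 (ENSG00000130066.16, chromosome X, 23783173 to 23786226) was at 11.6, 12.3 and 11.1 CPM in intact and 18.6, 20.1 and 20.3 CPM in deleted libraries, with no overlap and a change of 0.79, SE 0.11 (edgeR adjusted p = 7.49e-05).

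The ratio of FTH1 to FTL counts within a library, which a shared scaling factor cannot move, was 2.37 ± 0.0418 (SD, n = 3) in intact and 1.02 ± 0.2195 in deleted DMSO libraries. It was 2.55 ± 0.142 in intact and 0.985 ± 0.07903 in deleted doxorubicin libraries. The 6 libraries labelled intact thus held more FTH1 relative to FTL than any of the 6 labelled deleted, in either treatment. The ratio of FTH1 to TFRC ran from 5.18 to 6.17 in intact and 3.73 to 4.02 in deleted DMSO libraries, where both genes were lower. In doxorubicin it ran from 5.15 to 9.36 in intact and 3.72 to 4.43 in deleted libraries.

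**Figure D2:**
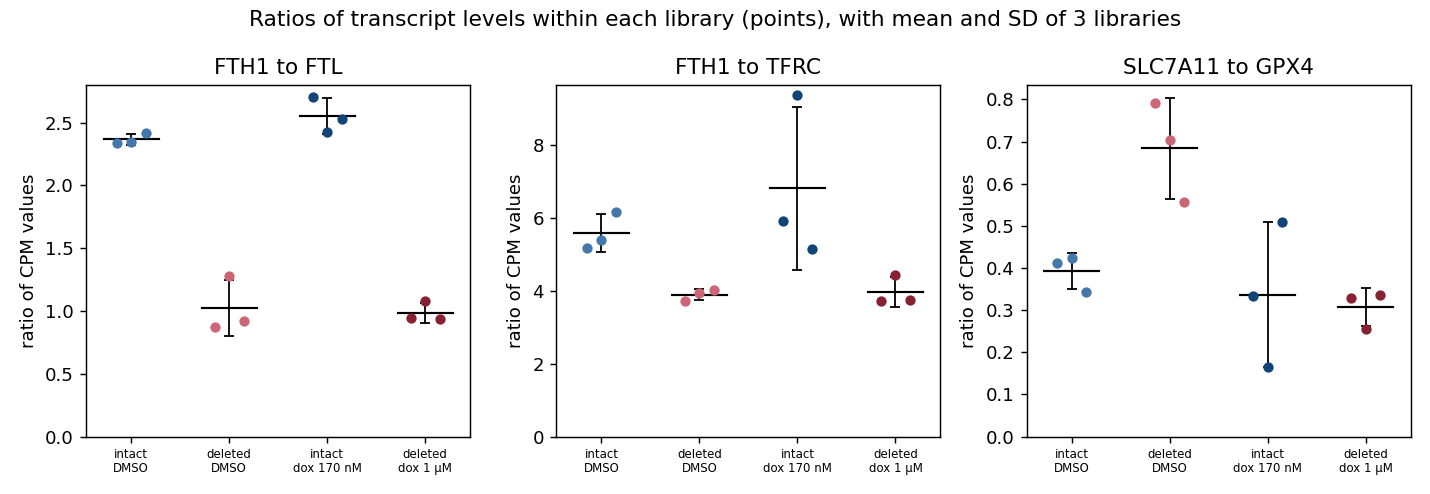
Ratio of 2 genes' CPM values within each library (y axis, from 0) by group (x axis), with points for the 3 libraries, a horizontal line for their mean and whiskers for 1 SD. FTH1 to FTL is 2.37 ± 0.0418 in intact and 1.02 ± 0.2195 in deleted DMSO libraries, and SLC7A11 to GPX4 is 0.684 ± 0.119 in DMSO and 0.307 ± 0.0452 in doxorubicin in deleted cells.

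With 170 nM doxorubicin, 0 of the 10 genes passed the threshold in cells labelled intact by edgeR, and 0 by DESeq2. Of all genes tested 0.0596% passed by edgeR (0.0275% higher and 0.0321% lower), 13 genes, and 467 genes by DESeq2. At an unadjusted p under 0.05 by edgeR there were 2504 of the 21803 genes tested and 1 of the 10, AIFM2. AIFM2 was at 16.3, 22.4 and 18.5 CPM in doxorubicin against 15.5, 14.6 and 16.1 CPM in DMSO. Each treated library was above each control library, by 0.38, SE 0.12 (edgeR adjusted p = 0.269). It passed in a fit that removed each library's dependence on transcript GC content (the GC trend), at 0.46 (adjusted p = 0.0143), and without the 2 libraries of highest mitochondrial share, at 0.47 (adjusted p = 0.0387). The other 22 alternatives did not call it, with values down to 0.26 and adjusted p up to 0.697.

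TFRC was at 393, 347 and 435 CPM in treated intact libraries, each below each control library, and did not pass, at -0.15, SE 0.092 (edgeR adjusted p = 0.559). SAT1 was at 10.004, 11.3 and 10.2 CPM and overlapped with its control, with a 95% interval of -0.31 to 0.15. SLC7A11 was at 62.05, 37.5 and 73.3 CPM and FTH1 at 2329, 3251 and 2239 CPM, and replicate 2 stood apart in both, low in SLC7A11 and high in FTH1. Intervals of the log2 fold change were -0.53 to 0.34 for SLC7A11, -0.16 to 0.36 for FTH1, -0.083 to 0.55 for GPX4 and -0.28 to 0.46 for ACSL4. They were -0.31 to 0.32 for FTL, -0.052 to 0.30 for NCOA4 and -0.36 to 0.70 for SLC40A1.

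Deviations from the group mean followed the GC content of the transcripts in intact doxorubicin replicate 2. On the log2(CPM + 1) scale SLC7A11, whose transcript has 35.4% GC, lay -0.55 and FTL, with 56.3%, 0.41 from the mean. Spearman's rho with GC over the 10 genes was 0.93 there and -0.93 in replicate 3, a description across genes of the same library. Deviations within a group sum to 0, so a trend in 1 of them appears with reversed sign in the others. The part of this trend in the doxorubicin values of the intact cells was not tested beyond the fit with the GC trend removed.

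**Figure D3:**
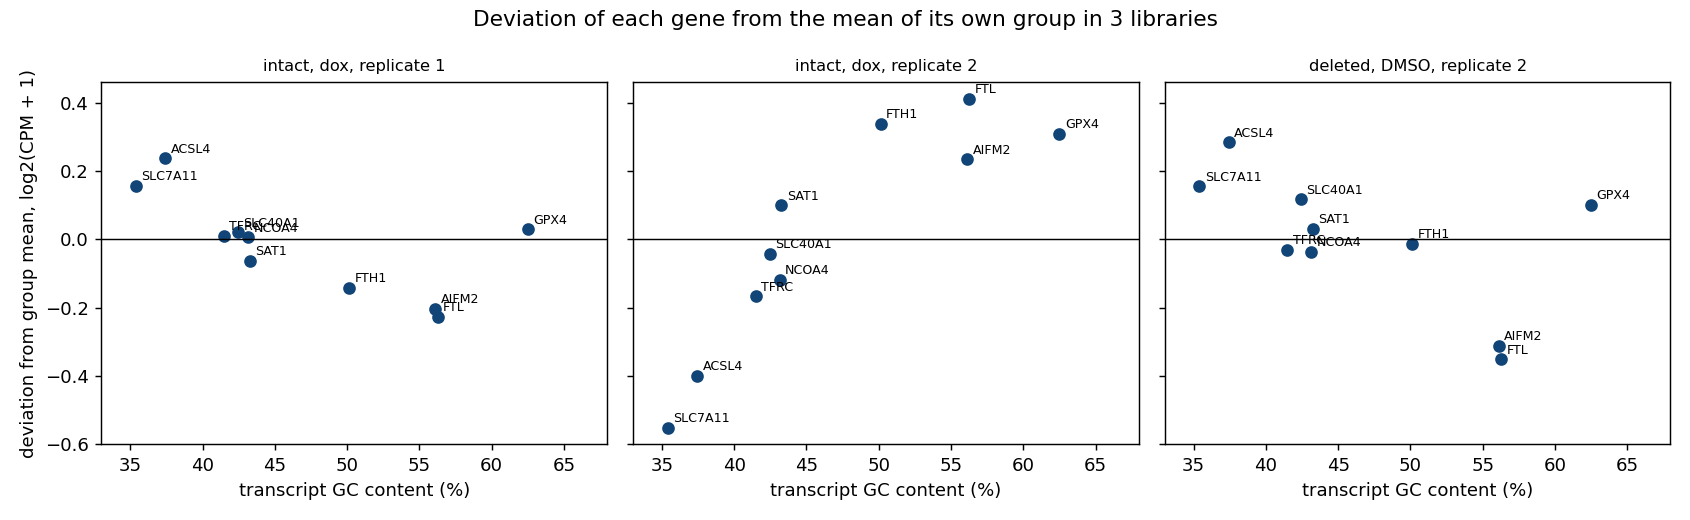
Deviation of each of the 10 genes from the mean of its own group, in log2(CPM + 1) (y axis), against transcript GC content in percent (x axis), in the 3 libraries named above the panels. In intact doxorubicin replicate 2 the deviations rise with GC content from -0.55 for SLC7A11 to 0.41 for FTL.

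With 1 µM doxorubicin, SAT1, AIFM2 and NCOA4 rose and SLC7A11 fell in cells labelled deleted. These were 4 of the 10 genes, against 30.7% of all genes tested (17.5% higher and 13.1% lower). SAT1 was at 109, 139 and 118 CPM in treated against 18.6, 20.1 and 20.3 CPM in control libraries. All treated libraries were far above all controls, and the change of 2.59, SE 0.11 (edgeR adjusted p = 1.8e-09) was a 6.03-fold rise. AIFM2 was at 53.7, 57.1 and 53.1 CPM in treated against 20.4, 14.9 and 21.5 CPM in control libraries, with no overlap and a change of 1.5003, SE 0.13 (edgeR adjusted p = 7.96e-07), or 2.83-fold.

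NCOA4 was at 667, 669 and 655 CPM in treated against 522, 489.8 and 496 CPM in control libraries. The groups were apart and the rise was small, at 0.36, SE 0.082 (edgeR adjusted p = 0.00398). SLC7A11 was at 53.9, 52.5 and 56.5 CPM in treated against 118, 119.7 and 87.6 CPM in control libraries. Each treated library lay below each control, with a change of -1.04, SE 0.20 (edgeR adjusted p = 0.00143), which brought it to 0.486 times its DMSO level. Those 4 calls held without each single library.

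The iron carriers and stores showed no change past the threshold in treated deleted cells. FTH1 was at 852, 931 and 824 CPM, with a 95% interval of -0.38 to 0.14 for its log2 fold change against DMSO. FTL was at 900.4, 865 and 884 CPM (-0.41 to 0.22) and SLC40A1 at 3.9996, 3.15 and 4.05 CPM (-0.36 to 0.61). TFRC was at 229, 209.9 and 220.1 CPM, each treated library below each control, with an interval of -0.34 to 0.061. GPX4 was at 164, 206 and 168 CPM (-0.19 to 0.45) and ACSL4 at 232, 233 and 231 CPM (-0.66 to 0.079). With the GC trend removed FTL and ACSL4 passed as lower, at -0.32 (adjusted p = 0.0168) and -0.31 (adjusted p = 0.0147) by edgeR, and GPX4 took the other sign, at -0.23 (adjusted p = 0.3502). That setting also moved the median of all genes to -0.13.

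**Figure D4:**
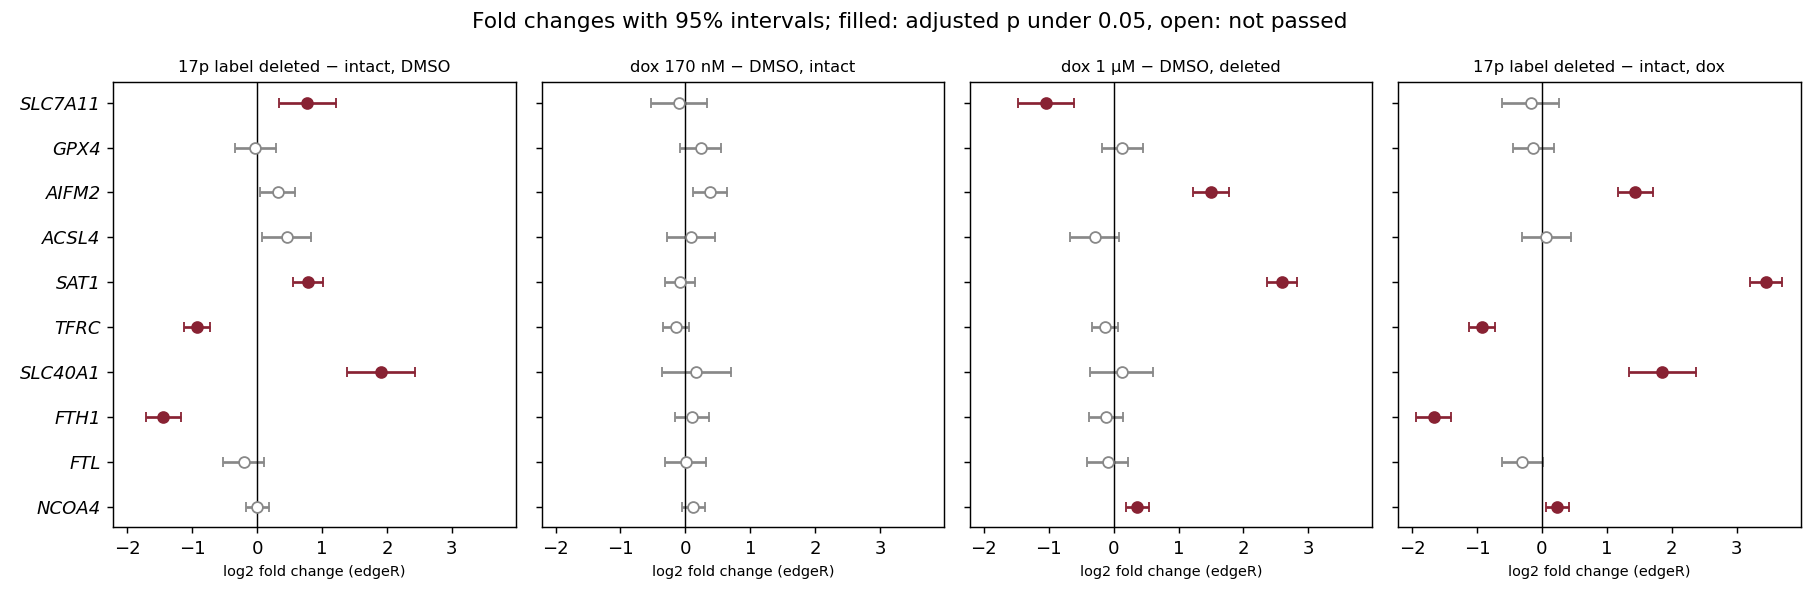
Log2 fold change of each of the 10 genes from the edgeR fit (x axis) in 4 comparisons (panels), with 95% intervals, filled where the adjusted p was under 0.05. With 170 nM doxorubicin in intact cells 0 of 10 genes are filled, and with 1 µM in deleted cells SAT1, AIFM2, NCOA4 and SLC7A11 are.

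Between treated libraries, those labelled deleted, which had the higher dose, held more SAT1, SLC40A1, AIFM2 and NCOA4 and less FTH1 and TFRC RNA. These were 6 of the 10 genes, against 47.8% of all genes tested (25.9% higher and 21.9% lower). SAT1 was 10.97 times its level in treated intact cells, at 3.46, SE 0.11 (edgeR adjusted p = 1.12e-10). AIFM2 was at 1.44, SE 0.12 (edgeR adjusted p = 6.17e-07) and SLC40A1 at 1.86, SE 0.24 (edgeR adjusted p = 2.32e-05). FTH1 was at -1.67, SE 0.12 (edgeR adjusted p = 1.39e-07) and TFRC at -0.92, SE 0.093 (edgeR adjusted p = 2.55e-06).

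NCOA4 was at 0.24, SE 0.082 (edgeR adjusted p = 0.0266) between treated libraries, with no overlap. That call was lost under 9 alternatives apart from a 2-fold minimum, with adjusted p up to 0.211. Among them were the fits without intact DMSO replicate 2 (0.21, adjusted p = 0.0691), intact doxorubicin replicate 1 (0.22, adjusted p = 0.0903) or 2 (0.14, adjusted p = 0.159). The others that left out a library were those without deleted doxorubicin replicate 1 (0.19, adjusted p = 0.147), 2 (0.20, adjusted p = 0.132) or 3 (0.20, adjusted p = 0.131), by edgeR. FTL, at -0.30, SE 0.15 (edgeR adjusted p = 0.1095), passed as lower without deleted DMSO replicate 2 (-0.33, adjusted p = 0.0348) or intact doxorubicin replicate 1 (-0.44, adjusted p = 0.0357), and was -0.11 (adjusted p = 0.4504) without intact doxorubicin replicate 2. By edgeR FTL also passed as lower with the GC trend removed (-0.54, adjusted p = 0.000209) and with no filter (-0.33, adjusted p = 0.0194). The same held without the 2 libraries of highest mitochondrial share (-0.44, adjusted p = 0.00582). SLC7A11 was at -0.17, SE 0.20 (edgeR adjusted p = 0.508) and passed as lower without intact doxorubicin replicate 2, at -0.45 (adjusted p = 0.0162), but was 0.026 without replicate 3. GPX4, at -0.13, SE 0.15 (edgeR adjusted p = 0.488), passed as lower with the GC trend removed, at -0.46 (adjusted p = 0.0426) by edgeR, and was -0.014 without intact doxorubicin replicate 2.

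The doxorubicin effect in deleted less that in intact cells was tested directly, with the dose confounded with the genotype label. It passed for 3 of the 10 genes, against 17% of all genes tested (10.3% higher and 6.74% lower). It was 2.67, SE 0.15 (edgeR adjusted p = 1.06e-07) for SAT1 and 1.12, SE 0.17 (edgeR adjusted p = 0.000515) for AIFM2, both past the threshold in every alternative, with a range of 2.59 to 2.79 and 0.81 to 1.24. For SLC7A11 it was -0.95, SE 0.29 (edgeR adjusted p = 0.0358), and that call was lost without any 1 of 10 of the 12 libraries, with adjusted p from 0.0515 to 0.0923 by edgeR and values from -0.98 to -0.75. The fits without deleted DMSO replicate 3 or intact doxorubicin replicate 2 kept it, and it was -0.76 (adjusted p = 0.0775) without the 2 libraries of highest mitochondrial share. For NCOA4 the difference was 0.24, SE 0.12 (edgeR adjusted p = 0.184) and did not pass. The 95% interval of the difference was -0.59 to 0.15 for FTH1, -0.27 to 0.29 for TFRC and -0.76 to 0.67 for SLC40A1.

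Genes whose pattern over the 12 libraries was closest to that of SLC7A11, TFRC and SAT1 were found by the root mean square difference of log2(CPM + 1), centred on the intact DMSO mean, among 10916 genes of at least 5 CPM. For TFRC these were DCBLD2, GLMN and B4GALT1, at 0.0869, 0.0944 and 0.0978. For SLC7A11 they were DOCK4, KLF12 and SEMA3E, at 0.135, 0.172 and 0.182. The 3 closest to SAT1 were TP53I11, at 43.1 CPM in deleted DMSO and 275 CPM in deleted doxorubicin libraries, CFAP251, which was at 6.06 CPM in deleted DMSO and 45.5 CPM in deleted doxorubicin libraries, and LPIN3, at 12.4 and 76.8 CPM, with differences of 0.136, 0.149 and 0.176.

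Promoter sequence was read from the RefSeq table (GRCh38.p14), which held 8 of the 10 genes, for the windows from 250 bases before to 50 after each start. SAT1 and AIFM2 were the genes that rose most, and of these the AIFM2 window held an antioxidant response element core (TGACNNNGC, in 13.3% of all such windows) that overlaps an AP-1 motif (TGANTCA, 7.71%), both strands searched. The match spans bases -22 to -14 from the start, shown in capitals.
AIFM2 (chr10:70132829-70132858, minus strand): ccagcacgagtGCTGAGTCAcgccccgccc
The SAT1 window held neither motif nor a p53 half-site (6.63% of windows), which says only that these letters are not in this window. NCOA4 held an AP-1 motif at -230 from 1 start and, at another start, a p53 half-site at -25 and an antioxidant response element core at 23.

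The wider pathway was described with 7 lists of 112 other genes, of which 106 were tested. In DMSO 20 were higher and 28 lower in the libraries labelled deleted, and 58 did not pass. That is 45.3% past the threshold, against 34.9% of all genes tested (18.8% higher and 16.2% lower), and the shares of single lists ran from 33.3% to 58.3%. The share of all genes takes in weakly expressed ones. Of the 14891 genes kept by a filter of 1 CPM in 3 libraries, 3411 were higher and 3482 lower, a larger share. The lists were not compared with genes of like expression, so no excess is read from these shares, here or in the other comparisons. Levels of the genes named are mean CPM, from intact to deleted, with the log2 fold change and its SE in brackets, each past the threshold. The list median log2 fold change was -0.04, and that of all genes tested 0.04. Iron uptake, export and haem iron genes had 7 of 15 lower and 1 higher. HMOX1, which frees iron from haem, went from 27.6 to 7.69 CPM (-1.83, SE 0.20), and the zinc and iron importer gene SLC39A14 from 164 to 115 CPM (-0.49, SE 0.12). Iron sensing and mitochondrial iron genes had 4 of 14 higher and 2 lower. NFS1, the cysteine desulfurase of iron-sulfur cluster synthesis, went from 29.3 to 43.5 CPM (0.60, SE 0.099) and the mitochondrial iron importer gene SLC25A37 from 49.4 to 35.4 CPM (-0.45, SE 0.097).

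Cystine, glutathione and radical-trapping genes had 7 of 29 lower and 5 higher in deleted DMSO libraries. NQO1, a quinone reductase, went from 225 to 45.9 CPM (-2.26, SE 0.10). GCLM, the modifier subunit of the first enzyme of glutathione synthesis, went from 97.1 to 34.6 CPM (-1.45, SE 0.11), and DHODH, which reduces mitochondrial ubiquinone, from 18.8 to 5.66 CPM (-1.704, SE 0.10). GCH1, which starts tetrahydrobiopterin synthesis, went from 15.5 to 27.2 CPM (0.84, SE 0.094), and BACH1, a haem-sensing repressor, from 33.6 to 62.1 CPM (0.91, SE 0.13). Whether BACH1 or chromosome-wide shifts had a part in these levels was not tested. Lipid genes had 5 of 20 higher and 4 lower, with the desaturase gene SCD from 169 to 89.04 CPM (-0.90, SE 0.085). Of 12 genes of ferritin turnover and autophagy 4 were higher and 3 lower, with MAP1LC3B from 50.1 to 88.6 CPM (0.85, SE 0.079) and ATG7 from 66.6 to 31.8 CPM (-1.05, SE 0.13), both parts of the autophagosome machinery. Polyamine genes had 3 of 9 lower and 0 higher, a share of 33.3% near the 34.9% of all genes, among them the spermine synthase gene SMS from 803 to 533 CPM (-0.55, SE 0.13), and selenoprotein genes 2 of 7 lower and 1 higher.

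With 170 nM doxorubicin in intact cells 0 of the 106 list genes passed by edgeR, against 13 of the 21803 genes tested. By DESeq2 3 passed, against 467 of all genes. At an unadjusted p under 0.05 by edgeR there were 2504 of all genes tested and 11 of the list genes. With 1 µM in deleted cells 26 rose and 26 fell (levels now from DMSO to doxorubicin), with a list median of -0.10 against -0.02 for all genes tested. The share past the threshold was 49.1%, against 30.7% of all genes tested (17.5% higher and 13.1% lower), and single lists ran from 33.3% to 65%. Of the 14891 genes kept by the filter of 1 CPM in 3 libraries, 3141 rose and 2730 fell. Lipid remodelling genes rose in 9 of 20 and fell in 4. PTGS2, a cyclooxygenase often used as a marker of ferroptosis, went from 0.686 to 5.41 CPM (2.94, SE 0.24), the lipoxygenase-family gene ALOXE3 from 4.19 to 12.9 CPM (1.58, SE 0.14) and LPCAT3, which esterifies polyunsaturated acids into phospholipids, from 35.5 to 69.3 CPM (0.93, SE 0.094). SCD fell from 89.04 to 44.9 CPM (-1.02, SE 0.085).

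Of the 29 cystine, glutathione and radical-trapping genes 7 rose and 9 fell in treated deleted cells. ATF3, a stress-induced transcription factor, went from 9.18 to 160.5 CPM (4.097, SE 0.11). GLS2, a glutaminase, went from 0.482 to 10.7 CPM (4.43, SE 0.32) and GCH1 from 27.2 to 90.9 CPM (1.7004, SE 0.095). TXNRD1, a thioredoxin reductase, fell from 744 to 404 CPM (-0.92, SE 0.085) and the chaperone gene HSPA5 from 833 to 589 CPM (-0.54, SE 0.072). Iron uptake and haem genes had 3 of 15 higher and 3 lower, with HMOX1 from 7.69 to 18.5 CPM (1.25, SE 0.20), and the ferrireductase genes STEAP2 from 7.96 to 23.6 CPM (1.51, SE 0.20) and STEAP3 from 27.3 to 15.3 CPM (-0.86, SE 0.13). Iron sensing and mitochondrial iron genes had 2 of 14 higher and 4 lower, with the iron-sulfur scaffold gene ISCU from 71.6 to 163 CPM (1.14, SE 0.11) and the iron chaperone gene PCBP1 from 491 to 384 CPM (-0.39, SE 0.081).

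The polyamine list and that of ferritin turnover and autophagy each had 33.3% past the threshold, near the 30.7% of all genes tested. Beside SAT1, 1 of 9 polyamine genes rose and 2 fell, SMS from 533 to 319 CPM (-0.79, SE 0.13) and the spermidine synthase gene SRM from 76.4 to 52.6 CPM (-0.57, SE 0.11). Beside NCOA4, 3 of 12 genes of ferritin turnover and autophagy rose and 1 fell, with the autophagy kinase gene ULK1 from 38.5 to 71.4 CPM (0.87, SE 0.18) and BECN1 from 62.2 to 88.95 CPM (0.48, SE 0.074). Selenoprotein genes had 1 of 7 higher and 3 lower, with SECISBP2, which binds the selenocysteine insertion element, from 43.4 to 67.3 CPM (0.59, SE 0.088). Between treated libraries 28 list genes were higher and 39 lower in those labelled deleted. That is 63.2%, against 47.8% of all genes tested (25.9% higher and 21.9% lower). Of the 14891 genes kept by the filter of 1 CPM in 3 libraries, 4360 were higher and 4306 lower. The share past the threshold was 79.3% of the cystine, glutathione and radical-trapping list, with 9 higher and 14 lower. It was 22.2% of the polyamine list and 57.1% to 66.7% of the other lists.

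**Figure D5:**
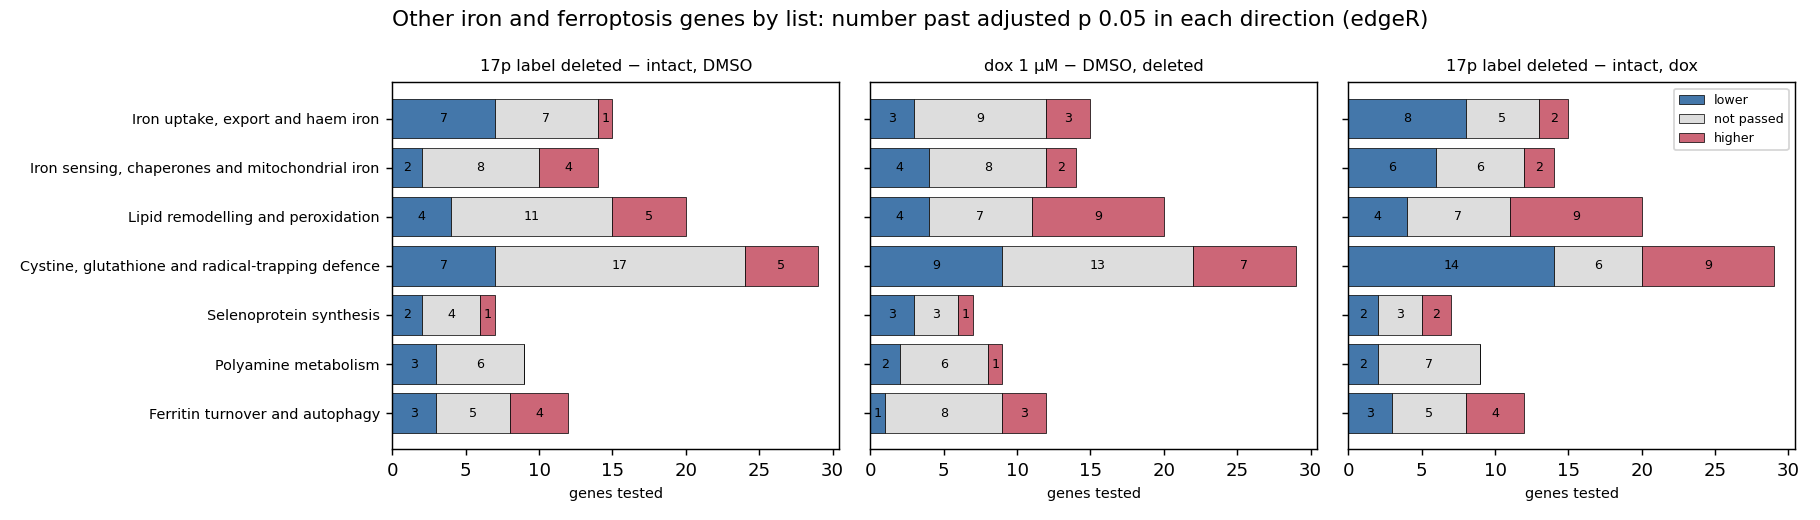
Number of tested genes in each of the 7 lists that were lower, not past the threshold or higher (stacked bars, x axis, from 0) in 3 comparisons (panels). With 1 µM doxorubicin in deleted cells 9 of 20 lipid genes are higher and 4 lower, against 17.5% and 13.1% of all genes tested. In DMSO 7 of 15 iron uptake, export and haem iron genes are lower and 1 higher, against 16.2% and 18.8% of all genes tested.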

How the data were processed

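RNA-seq counts of 12 libraries were used, 3 in each of 4 groups set by the sample titles. Values are unnormalised read counts by gene, as deposited. The submitters' processing notes name STAR 2.7.9a, featureCounts, Subread 2.0.1 and the build hg38. The annotation release was not given in the sources used here, nor was the strand setting. Of 60660 identifiers 60419 had a symbol and 58385 a position in GENCODE 29.

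In edgeR 4.0.16 (R 4.3.3) low genes were dropped by filterByExpr, libraries scaled by TMM factors, and all 4 groups fitted together with the quasi-likelihood test, with Benjamini-Hochberg adjustment over the 21803 genes tested and a threshold of 0.05. SE is the log2 fold change over the root of F, and intervals are 95%. CPM uses library totals. Pairs of libraries within a group differed by more than sampling noise (chi-square per degree of freedom 8.42 to 204), so none was counted as a duplicate. On simulated data the fit missed the share of changed genes it was first required to recover. That requirement was replaced, after the result was seen, by ones on bias, false calls and sign, which it met. Most missed genes were of low expression, so a gene that did not pass is not shown to be unchanged.

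All 10 genes are named. From each list the rule took, per comparison, up to 3 genes in each direction of lowest p among those reaching 5 CPM in either group's mean, and the most abundant gene that did not pass. Of these the text names examples, mostly ones whose call held under all alternatives other than a 2-fold minimum, and the rest enter as counts. The genes, lists and alternatives were chosen with earlier results of these data known. The alternatives were RLE size factors or library totals, no filter or 1 CPM in 3 libraries, DESeq2 1.42.0, limma-voom (limma 3.58.1), only the groups compared, a replicate block, the GC trend removed (loess span 0.5, GC known for 98% of genes tested), leaving out each library or the 2 of highest mitochondrial share, a 2-fold minimum and pseudogene counts added.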

Additional observations from a re-analysis of the deposited data

Results flagged for a closer look

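The results below stand out because the doxorubicin effect in cells labelled deleted differed from that in cells labelled intact by a direct test, the interaction term of the edgeR fit at an adjusted p under 0.05. The dose was 1 µM in deleted and 170 nM in intact cells, so dose and genotype cannot be told apart in any of them. Values are the log2 effect in deleted less that in intact cells.

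Among the 10 genes the difference was 2.67 for SAT1, 1.12 for AIFM2 and -0.95 for SLC7A11, the last lost under 14 of 23 alternatives apart from a 2-fold minimum. Of the 106 list genes tested 19 passed as higher and 13 as lower. That is 30.2%, against 17% of all genes tested (10.3% higher and 6.74% lower). Of the 14891 genes kept by the filter of 1 CPM in 3 libraries, 2108 passed as higher and 1379 as lower. Only the list genes that the rule took, up to 3 in each direction from each list, are named here. Among these it was positive for HMOX1 (1.402), STEAP2 (1.32), ISCU (0.94), ALOXE3 (1.49), PTGS2 (2.23), FADS1 (0.82), ATF3 (4.01), GLS2 (4.56) and GCH1 (1.21). It was negative for SCD (-0.78), TXNRD1 (-0.92), HSPA5 (-0.54), VKORC1L1 (-0.63) and SMS (-0.89). These held in every alternative apart from a 2-fold minimum. The call was lost in 2 or more other alternatives for HFE (-0.66), PCBP2 (-0.40), CISD3 (-0.43), PCBP1 (-0.35), SECISBP2 (0.48), SRM (-0.50), BECN1 (0.33) and ULK1 (0.81).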

How the results depend on the processing

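Most results held. Over 24 alternatives (23 for the difference of effects, where fitting only the groups compared is the reported fit itself) the 10 genes gave 1190 values. Of these 1079 kept their direction and side of the threshold, 30 lost a call, 22 gained one and 59 changed sign, all of the last from values that had not passed. For the list genes that the rule named as past the threshold, 2608 of 2930 kept both and 322 lost the call. As all of these had passed, none could gain a call. Counts past the threshold that moved by over 1.5 times are given with the reported count in brackets. With the GC trend removed the counts were, in the genotype comparison in DMSO 5 of the 10 genes higher (3). For doxorubicin in intact cells it gave 569 of all genes (13), 1 of the 10 genes higher (0) and 4 list genes (0). For doxorubicin in deleted cells it gave 3 of the 10 genes lower (1). For the genotype comparison in doxorubicin it gave 4 of the 10 genes lower (2). For the difference of doxorubicin effects it gave 6607 of all genes (3705), 3 of the 10 genes lower (1) and 52 list genes (32). With a 2-fold minimum as well the counts were, in the genotype comparison in DMSO 2651 of all genes (7618), 1 of the 10 genes higher (3), 1 of the 10 genes lower (2) and 11 list genes (48). For doxorubicin in intact cells it gave 2 of all genes (13). For doxorubicin in deleted cells it gave 2921 of all genes (6684) and 14 list genes (52). For the genotype comparison in doxorubicin it gave 4926 of all genes (10421), 1 of the 10 genes lower (2) and 20 list genes (67). For the difference of doxorubicin effects it gave 1984 of all genes (3705), 0 of the 10 genes lower (1) and 11 list genes (32). With library totals as the scaling the counts were, in doxorubicin in intact cells 48 of all genes (13). For the difference of doxorubicin effects it gave 0 of the 10 genes lower (1). With no filter the counts were, in doxorubicin in intact cells 196 of all genes (13) and 1 list gene (0). With a filter of 1 CPM in 3 libraries the counts were, in doxorubicin in intact cells 65 of all genes (13). With DESeq2 the counts were, in doxorubicin in intact cells 467 of all genes (13) and 3 list genes (0). With limma-voom the counts were, in doxorubicin in intact cells 25 of all genes (13). For the difference of doxorubicin effects it gave 0 of the 10 genes lower (1). With only the groups compared in the fit the counts were, in doxorubicin in intact cells 0 of all genes (13). With the replicate number as a block the counts were, in doxorubicin in intact cells 0 of all genes (13). For the difference of doxorubicin effects it gave 0 of the 10 genes lower (1). Without the 2 libraries of highest mitochondrial share the counts were, in doxorubicin in intact cells 195 of all genes (13), 1 of the 10 genes higher (0) and 3 list genes (0). For the difference of doxorubicin effects it gave 0 of the 10 genes lower (1). Leaving out 1 library at a time gave 0 to 220 of all genes in doxorubicin in intact cells, 0 to 2 list genes in doxorubicin in intact cells, 0 to 2 of the 10 genes lower in the difference of doxorubicin effects and 20 to 38 list genes in the difference of doxorubicin effects. For doxorubicin in intact cells the count was 220 without deleted DMSO replicate 2 and 81 without intact doxorubicin replicate 2 over all genes. The list genes past the threshold in the difference of effects numbered 20 without intact DMSO replicate 2 and 21 without deleted doxorubicin replicate 2 or 3. With a 2-fold minimum fewer genes can pass by construction, and with fewer samples or genes the fit differs. The cause of the other changes was not tested.

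The values that changed sign, none of them past the threshold as reported, were as follows. In the genotype comparison in DMSO the log2 fold change of GPX4 was -0.029 and became 0.15 with GC trend removed, -0.15 to 0.034 over the fits without 1 library. In the genotype comparison in DMSO the log2 fold change of NCOA4 was 0.00185 and became -0.018 with RLE size factors, -0.028 with library totals, -0.053 with no filter, -0.037 with filter of 1 CPM in 3 libraries, -0.018 with DESeq2, -0.032 with only the groups compared, -0.046 with GC trend removed, -0.059 without the 2 high-mitochondrial libraries, -0.070 to 0.037 over the fits without 1 library. In doxorubicin in intact cells the log2 fold change of SLC7A11 was -0.095 and became -0.29 to 0.15 over the fits without 1 library. In doxorubicin in intact cells the log2 fold change of ACSL4 was 0.090 and became -0.041 without the 2 high-mitochondrial libraries, -0.043 to 0.27 over the fits without 1 library. In doxorubicin in intact cells the log2 fold change of FTH1 was 0.10 and became -0.075 to 0.21 over the fits without 1 library. In doxorubicin in intact cells the log2 fold change of FTL was 0.00362 and became -0.002296 with RLE size factors, -0.068 with library totals, -0.027 with no filter, -0.035 with filter of 1 CPM in 3 libraries, -0.00229 with DESeq2, -0.024 with limma-voom, -0.021 with only the groups compared, -0.22 to 0.11 over the fits without 1 library. In doxorubicin in intact cells the log2 fold change of SLC40A1 was 0.17 and became -0.095 to 0.38 over the fits without 1 library. In doxorubicin in deleted cells the log2 fold change of GPX4 was 0.13 and became -0.23 with GC trend removed. In the genotype comparison in doxorubicin the log2 fold change of SLC7A11 was -0.17 and became -0.45 to 0.026 over the fits without 1 library. In the genotype comparison in doxorubicin the log2 fold change of ACSL4 was 0.071 and became -0.024 with GC trend removed, -0.15 to 0.17 over the fits without 1 library. In the difference of doxorubicin effects the log2 fold change of GPX4 was -0.10 and became 0.015 with library totals, 0.0092 without the 2 high-mitochondrial libraries, -0.26 to 0.054 over the fits without 1 library. In the difference of doxorubicin effects the log2 fold change of FTL was -0.095 and became 0.00448 with library totals, -0.22 to 0.12 over the fits without 1 library. In the difference of doxorubicin effects the log2 fold change of TFRC was 0.012 and became -0.00487 with GC trend removed, -0.078 to 0.085 over the fits without 1 library. In the difference of doxorubicin effects the log2 fold change of SLC40A1 was -0.047 and became 0.069 with library totals, 0.11 without the 2 high-mitochondrial libraries, -0.25 to 0.22 over the fits without 1 library.

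Same-numbered libraries of different groups deviated from their group means with correlations of -0.22 to 0.12, above 0.1 in 2 of 18 pairs, and 4 of 12 libraries correlated best with a library of their own number. The replicate numbers were therefore not used as pairs. With the replicate number as a block the difference of doxorubicin effects of SLC7A11 was -0.94 (adjusted p = 0.0723) by edgeR, and the count of all genes past the threshold in intact cells was 0.

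The GC trend was removed by loess offsets. This moved the median log2 fold change of all genes to -0.13 with doxorubicin in deleted cells, -0.15 between genotypes in doxorubicin and -0.19 in the difference of effects. The calls were then 3637 higher and 5353 lower, 5036 and 7158, and 2162 and 4445, against 3822 and 2862, 5655 and 4766, and 2235 and 1470. No filter moved the median of the difference of effects to 0.13, and with library totals 7 of 48 calls in intact cells were higher against 6 of 13.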
